A study of Mus musculus with 9 samples.

Results

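The integrin and laminin genes of the mouse were followed in yNSCs, native NSCs and neurons. The members were set by gene symbol and not by their measured values, as genes that encode an integrin alpha or beta chain or a laminin alpha, beta or gamma chain and that had at least 1 probe set with a single gene symbol. They numbered 34 of 18193 measured genes, with 24 integrins and 10 laminins. Integrin-like genes and integrin-binding proteins were left out by this rule.

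Genome-wide mRNA levels were measured on 9 Affymetrix expression arrays, 3 biological replicates (A, B and C) for each of 3 kinds of cultured mouse cell. The yNSCs were neural stem-like cells derived from cortical neurons that had received lentiviral vectors for a doxycycline-inducible wild-type YAP and for the rtTA activator, and that were later passaged without doxycycline. The native NSCs were neural stem cells that carried no YAP vector, and both stem-like cultures grew in DMEM/F12 with N2 supplement, glutamine, heparin, antibiotics and the murine growth factors EGF and bFGF. The neurons were primary cortical cultures, prepared from late embryos or newborn pups, in Neurobasal with B27, glutamine, antibiotics and AraC, a drug that kills dividing cells. Medium and growth factors therefore differed together with cell kind between the neurons and both stem-like groups, and these cannot be told apart. The strain and the age of the cells at the time of the arrays were not given in the sources used here. The sources did not say whether replicates came from separate animals, so p-values measure the spread between these samples.

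Integrins are cell surface receptors made of 1 alpha and 1 beta chain, and they connect the extracellular matrix to the actin cytoskeleton. Laminins are trimers of an alpha, a beta and a gamma chain and are the main adhesive proteins of basement membranes. In the developing cortex, the end-feet of radial glia, the neural stem cells of that tissue, hold to the laminin-rich pial basement membrane through integrins with the beta1 chain.

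Windows just upstream of a transcript start of 3 integrin genes are shown because Itgb1 and Itgav were far above neurons in both stem-like groups, whereas Itga4 separated yNSCs from native NSCs. Each is the 100 bases before the transcript start that the RefSeq promoter table of mouse build GRCm38.p6 uses (for Itgav a start inside the annotated gene, not its outermost one), on the plus strand, with capitals marking the motif CATTCC or its reverse complement GGAATG, the core bound by TEAD factors, the DNA-binding partners of YAP.
Itgb1, chr8:128685554-128685653: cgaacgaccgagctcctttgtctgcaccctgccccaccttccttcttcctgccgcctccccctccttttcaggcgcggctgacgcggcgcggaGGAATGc
Itgav, chr2:83724297-83724396: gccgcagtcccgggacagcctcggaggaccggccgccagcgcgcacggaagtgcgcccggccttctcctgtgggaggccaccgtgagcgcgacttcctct
Itga4, chr2:79255326-79255425: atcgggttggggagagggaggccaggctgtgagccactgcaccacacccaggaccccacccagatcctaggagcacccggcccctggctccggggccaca
The motif stood next to the start of Itgb1 and was not in the windows of Itgav and Itga4. Across windows of 250 bases before and 50 bases after the start, CATTCC on either strand was found in 3 of the 22 members in the table (Itgb1, Lamb3 and Itga10), against 14.7% of 32851 promoters. The AP-1 motif, searched as TGAGTCA and TGACTCA, was found in 2 of the 22 (Itgax and Itga9), against 5.20% of promoters. A match is a description of letters and not of a bound site.

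Values are the deposited log2 signals, on which a difference of 1 is a 2-fold change, and each gene is represented by its probe set with the highest mean. Levels of different genes cannot be set against each other because probe sets differ in their response. A member was called where limma's moderated test, fitted on all 9 arrays, gave an adjusted p under 0.05 over all genes. The median signal per array lay between 4.90 and 5.02 and replicates of a group correlated at 0.992 to 0.998. NSC replicate A stood apart, since 162 of its genes were over 2-fold away from its group partners, where no other array had over 30. None of the 34 members was among the 162. In neuron replicate A 2 members were that far from their partners (Itga7 and Lama5), and in neuron replicate C 1 was (Lama5). The summed signal of 8 neuron markers was 10.12 to 10.34 in yNSCs, 11.55 to 11.73 in NSCs and 14.75 to 14.79 in neurons (log2), and that of 6 neural stem cell markers was 14.71 to 14.73, 14.72 to 14.88 and 13.99 to 14.06 in the same order of groups. Each of the 8 neuron markers was lower in yNSCs and in NSCs than in neurons, beside 27.9% and 34.1% of all genes. Between yNSCs and NSCs these markers were mixed. Rbfox3 and Map2 were lower in yNSCs by 1.92 and 1.76, and Tubb3, Snap25 and Stmn2 higher by 1.28, 2.12 and 1.93. The summed signal of 9 astrocyte markers was 13.07 to 13.26 in yNSCs, 12.91 to 13.22 in NSCs and 14.08 to 14.19 in neurons, although Gfap was higher in yNSCs than in NSCs by 5.42 and than in neurons by 1.61, and Aqp4 higher in yNSCs than in NSCs by 4.83. The summed signal of 16 microglial markers was likewise highest in neurons (values beside the leukocyte integrins). That of 5 oligodendrocyte precursor markers was 13.09 to 13.12 in yNSCs, 13.30 to 13.51 in NSCs and 12.11 to 12.15 in neurons. Pdgfra, Olig2 and Cspg4 were lower in yNSCs than in NSCs and 0 of the 5 higher, beside 18.0% and 21.3% of genes. Against neurons, yNSCs had 2 higher and 3 lower, beside 34.6% and 27.9% of genes. NSCs had 3 higher and 2 lower, beside 33.3% and 34.1%. The part of such cells in the member differences was not tested. In cultures measured in bulk, fewer cells of a type and less RNA per cell cannot be told apart.

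In yNSCs 12 of the 34 members were higher than in neurons, a share close to the 34.6% of all genes, and 7 were lower, a smaller share than the 27.9% of all genes. In NSCs 15 members were higher than in neurons and 7 were lower, a larger and a smaller share than the 33.3% and 34.1% of all genes. In yNSCs 8 members were higher than in NSCs and 7 were lower, close to the 21.3% and 18.0% of all genes. The median member difference was 0.06 for yNSCs minus neurons, 0.26 for NSCs minus neurons and -0.01 for yNSCs minus NSCs, where the median gene was at -0.01, -0.07 and 0.07. The comparisons with neurons share the neuron arrays.

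In yNSCs 8 members were called at least 2-fold higher than in neurons, namely Itga7, Itga8, Itgav, Itgb1, Itgb8, Lama5, Lamb2 and Lamc1, where 18.3% of all genes were. None was called at least 2-fold lower in yNSCs (0 also at an unadjusted p under 0.05 in limma), where 11.0% of all genes were. In NSCs 12 members were at least 2-fold higher than in neurons, namely Itga4, Itga6, Itga7, Itga8, Itgav, Itgb1, Itgb8, Lama4, Lama5, Lamb1, Lamb2 and Lamc1, and 2 were at least 2-fold lower, namely Itgb2 and Lama2. The background there was 18.6% higher and 12.6% lower. Between yNSCs and NSCs, Itga7 and Itgb2 were at least 2-fold higher and Itga4, Itga6 and Lamb1 at least 2-fold lower in yNSCs, against 6.06% and 5.97% of all genes.

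**Figure D1:**
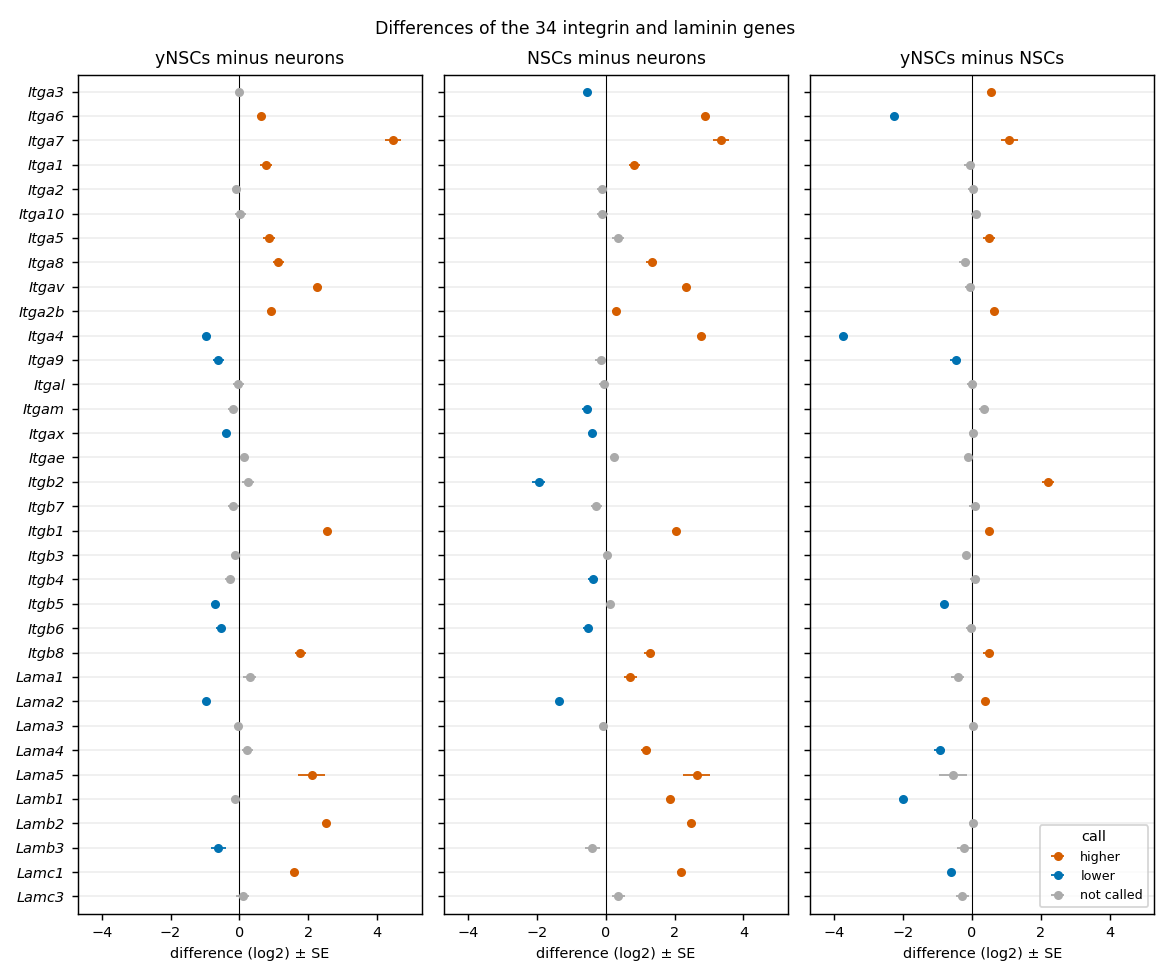
Difference in log2 signal for each of the 34 integrin and laminin genes in the 3 comparisons, one row a gene, with SE bars and with orange for called higher, blue for called lower and grey for not called. Itga7 lies farthest to the right for yNSCs minus neurons (4.45), and Itga4 lies at 2.77 for NSCs minus neurons and at -3.74 for yNSCs minus NSCs.

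Itgb1, the beta chain shared by most matrix-binding integrins, was higher in both stem-like groups than in neurons. Its signal was 10.32, 10.48 and 10.61 in the yNSC arrays, 9.85, 10.04 and 10.00 in the NSC arrays and 7.93, 7.97 and 7.90 in the neuron arrays, and no group overlapped another. It was 5.80-fold higher in yNSCs than in neurons (log2 difference 2.54, SE 0.106, adjusted p = 9.31e-10) and 4.08-fold higher in NSCs than in neurons (2.03, adjusted p = 5.77e-09). The step between yNSCs and NSCs was small, 1.42-fold (0.51, adjusted p = 0.00225). Itgb8, which pairs with the alphav chain and activates latent TGF-beta, was at 10.92, 10.99 and 10.61 in yNSCs, 10.04, 10.43 and 10.58 in NSCs and 9.25, 9.08 and 8.89 in neurons, with every stem-like array above the neuron arrays. It was 3.40-fold higher in yNSCs (adjusted p = 8.27e-07) and 2.42-fold higher in NSCs (adjusted p = 1.48e-05) than in neurons. The 0.49 log2 by which yNSCs exceeded NSCs in Itgb8 (adjusted p = 0.027) lost its call without NSC replicate A, when it was 0.34 (adjusted p = 0.0996), and also without yNSC replicate A (0.45) or B (0.41).

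Itgb5, the vitronectin-binding partner of alphav, separated yNSCs from both other groups in the downward direction. Its signal was 7.71, 7.74 and 7.96 in yNSCs, 8.58, 8.76 and 8.54 in NSCs and 8.60, 8.54 and 8.39 in neurons, so that the yNSC arrays lay below all others while NSCs and neurons overlapped. It was 1.63 times lower in yNSCs than in neurons (adjusted p = 0.000135) and 1.77 times lower than in NSCs (adjusted p = 9.26e-05), and NSCs differed from neurons by 0.12 (SE 0.112, adjusted p = 0.375). Each of the 4 Itgb5 probe sets was lower in yNSCs than in neurons and than in NSCs. For NSCs minus neurons they disagreed, with 1 called at -0.37 (adjusted p = 0.0076) and another at 0.31 (adjusted p = 0.0254). Itgb6, an epithelial beta chain, was near background in every group, meaning below the mean lower quartile of the group's arrays, and its called differences from neurons of -0.55 in yNSCs and -0.52 in NSCs lie in that range, the one in NSCs being lost after repeated quantile normalization (-0.30, adjusted p = 0.0701). Itgb4, the beta chain of hemidesmosomes, was not called in yNSCs against neurons (-0.28, called without neuron replicate A at -0.41) and was lower in NSCs than in neurons by 0.37 (adjusted p = 0.0427), a call lost without neuron replicate B (-0.18), without any single NSC or yNSC array (-0.36 to -0.38), when only the 6 arrays were fitted, with array medians subtracted (-0.32) and after repeated quantile normalization (-0.15). Itgb3, the beta chain of platelet and osteoclast integrins, was not called by its representing probe set, with differences of -0.14, 0.03 and -0.17 for yNSCs minus neurons, NSCs minus neurons and yNSCs minus NSCs. Its other probe set, near background in both stem-like groups, was called lower than in neurons by 0.78 in yNSCs (adjusted p = 0.000285) and by 0.77 in NSCs (adjusted p = 0.000291), and the mean of both was -0.46 (adjusted p = 0.000815) and -0.37 (adjusted p = 0.00336).

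Itga7, the laminin-binding alpha chain best known from skeletal muscle, had the largest difference from neurons among the members in both stem-like groups. It was at 8.61, 8.63 and 8.74 in the yNSC arrays, 7.40, 7.72 and 7.58 in the NSC arrays and 3.51, 4.46 and 4.67 in the neuron arrays, and the groups did not overlap. It was 21.8-fold higher in yNSCs than in neurons (log2 difference 4.45, SE 0.235, adjusted p = 6.81e-09), 10.2-fold higher in NSCs than in neurons (3.35, adjusted p = 8.16e-08) and 2.13-fold higher in yNSCs than in NSCs (1.09, adjusted p = 0.00263). Over the alternatives the differences from neurons were 4.09 to 4.67 in yNSCs and 3 to 3.58 in NSCs, all called. Because Itga7 is also a gene of smooth muscle and other contractile cells, 12 mural cell and fibroblast markers were read beside it. Their summed signal was 12.40 to 12.86 in yNSCs, 9.62 to 10.01 in NSCs and 9.06 to 9.16 in neurons (log2). Of the 12, 4 were higher in yNSCs than in neurons (Rgs5, Acta2, Tagln and Cnn1), beside 34.6% of all genes. Another 4 were lower (Pdgfrb, Col3a1, Dcn and Abcc9), beside 27.9% of all genes. The yNSC sum was carried by the contractile genes Tagln (mean 11.93) and Acta2 (mean 10.79). Their part in the Itga7 difference was not tested.

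Itga6, the laminin-binding alpha chain used as a surface marker of many stem cells, was highest in native NSCs. Its signal was 8.67, 8.66 and 8.67 in yNSCs, 10.73, 11.07 and 11.00 in NSCs and 8.08, 7.93 and 8.11 in neurons, without overlap. It was 1.54-fold higher in yNSCs than in neurons (0.63, SE 0.111, adjusted p = 0.000324), 7.43-fold higher in NSCs than in neurons (2.89, adjusted p = 3.88e-10) and 4.81 times lower in yNSCs than in NSCs (-2.27, adjusted p = 1.68e-08). Its other probe set gave 0.75, 2.84 and -2.09 for the same comparisons. Itga3, a laminin-binding chain of epithelia and migrating neurons, was at 6.27, 6.43 and 6.26 in yNSCs, 5.79, 5.69 and 5.85 in NSCs and 6.38, 6.33 and 6.25 in neurons. It was lower in NSCs than in neurons by 0.54 (adjusted p = 0.00039) and higher in yNSCs than in NSCs by 0.54 (adjusted p = 0.000855), and yNSCs and neurons overlapped, with a difference of 0.00 (SE 0.0992).

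**Figure D2:**
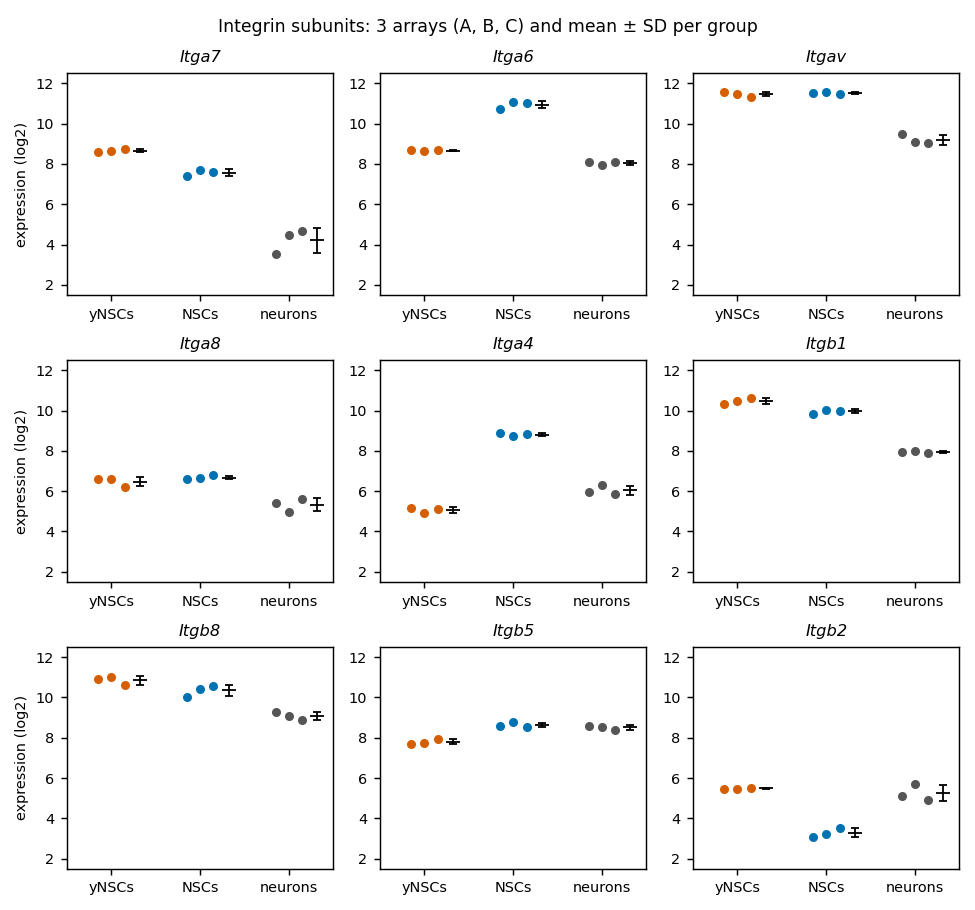
Log2 signal of 9 integrin genes on each array, with yNSCs, NSCs and neurons from left to right, points for replicates A to C and a black mark for the mean ± SD. Itga4 and Itga6 peak in NSCs (Itga6 at 10.73 to 11.07), while Itgb2 is lowest in NSCs (3.09 to 3.52).

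Among alpha chains that recognise the RGD peptide of matrix proteins, 4 of 4 were higher in yNSCs and 3 of 4 in NSCs than in neurons, beside 34.6% and 33.3% of all genes. Itgav, the receptor chain for vitronectin and latent TGF-beta, was at 11.55, 11.49 and 11.34 in yNSCs, 11.53, 11.58 and 11.46 in NSCs and 9.48, 9.07 and 9.04 in neurons. Both stem-like groups lay above neurons and overlapped each other. Itgav was 4.80-fold higher in yNSCs (adjusted p = 1.22e-08) and 5.02-fold higher in NSCs (adjusted p = 8.8e-09) than in neurons, and the difference of -0.06 between yNSCs and NSCs (SE 0.128, adjusted p = 0.742) did not pass the test. Itga8, the alpha chain that binds nephronectin with beta1, was at 6.60, 6.58 and 6.21 in yNSCs, 6.60, 6.64 and 6.78 in NSCs and 5.43, 4.98 and 5.60 in neurons, 2.18-fold and 2.53-fold higher in yNSCs and in NSCs than in neurons (adjusted p = 5.56e-05 and 1.17e-05). Here too the stem-like arrays overlapped each other and lay above all neuron arrays.

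Itga5, the classical fibronectin receptor chain, was at 5.57, 5.05 and 5.47 in yNSCs, 5.04, 4.55 and 5.02 in NSCs and 4.40, 4.36 and 4.75 in neurons. It was higher in yNSCs than in neurons by 0.86 (adjusted p = 0.000911), and NSCs overlapped neurons with a difference of 0.37 (adjusted p = 0.0815). The NSC difference gained a call in 4 of the alternatives. Other Itga5 probe sets gave 0.55 (adjusted p = 0.00317), 0.29 (adjusted p = 0.11) and 0.21 (adjusted p = 0.261) for yNSCs minus neurons. The mean of all probe sets was 0.48 and still called. The Itga5 difference of 0.49 between yNSCs and NSCs (adjusted p = 0.0415) lost its call without NSC replicate B (0.33), yNSC replicate A (0.39), yNSC replicate C (0.44) or neuron replicate A (0.49). Itga2b, the platelet fibrinogen receptor chain, was at 6.89, 6.92 and 6.91 in yNSCs, 6.18, 6.42 and 6.21 in NSCs and 5.93, 5.88 and 6.14 in neurons. It was higher in yNSCs than in neurons by 0.92 (adjusted p = 9.81e-06) and than in NSCs by 0.64 (adjusted p = 0.00051). The Itga2b call in NSCs against neurons (0.29, adjusted p = 0.0338) was not kept with the replicate letter as a block (adjusted p = 0.0522), nor without neuron replicate A (0.26), neuron replicate B (0.23), NSC replicate B (0.21) or yNSC replicate B (0.29). It was also lost with a robust prior, with only the 6 arrays fitted and after repeated quantile normalization, when it was 0.05.

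Itga4, the alpha chain that binds VCAM1 and fibronectin, showed the largest difference of any member between yNSCs and NSCs. It was at 5.17, 4.90 and 5.13 in the yNSC arrays, 8.87, 8.72 and 8.84 in the NSC arrays and 5.95, 6.31 and 5.85 in the neuron arrays, and the groups did not overlap. It was 1.96 times lower in yNSCs than in neurons (-0.97, SE 0.132, adjusted p = 3.66e-05), 6.84-fold higher in NSCs than in neurons (2.77, adjusted p = 2.54e-09) and 13.4 times lower in yNSCs than in NSCs (-3.74, adjusted p = 1.46e-09). Averaged over all Itga4 probe sets, the difference was 0.98 for NSCs minus neurons and -1.55 for yNSCs minus NSCs. Vcam1, a cell adhesion ligand of alpha4 and alpha9 integrins, was at 10.21, 10.13 and 10.24 in yNSCs, 6.84, 6.92 and 7.09 in NSCs and 8.06, 8.26 and 8.17 in neurons, and was higher in yNSCs than in NSCs by 3.24 (adjusted p = 7.47e-10). Itga9, the chain that also binds tenascin-C, was lower in yNSCs than in neurons by 0.61 (adjusted p = 0.00529), which was lost as the mean of its probe sets (-0.22). Its difference of -0.47 from NSCs (adjusted p = 0.0371) was lost without NSC replicate A (-0.49), NSC replicate C (-0.38), yNSC replicate A (-0.45) or yNSC replicate B (-0.39). That call was also lost after repeated quantile normalization, with array medians subtracted and as the mean of all probe sets. The other Itga9 probe sets gave -0.08 (adjusted p = 0.691) and -0.29 (adjusted p = 0.15) for yNSCs minus NSCs.

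Of the collagen-binding alpha chains only Itga1 passed a test. It was at 5.90, 5.86 and 5.61 in yNSCs, 5.92, 5.71 and 5.94 in NSCs and 4.78, 5.43 and 4.86 in neurons, higher than in neurons by 0.77 in yNSCs (adjusted p = 0.00131) and by 0.83 in NSCs (adjusted p = 0.000675). The other Itga1 probe set, near background in neurons, gave 0.81 (adjusted p = 0.00178) in yNSCs and 0.35 (adjusted p = 0.101) in NSCs. Itga2 (-0.09 in yNSCs and -0.12 in NSCs against neurons) and Itga10 (0.02 and -0.10) were not called in any comparison, and Itga10 was near background in every group.

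The 6 leukocyte integrins, Itgae, Itgal, Itgam, Itgax, Itgb2 and Itgb7, were read together with markers of microglia, the resident macrophages of the brain. Itgb2, the beta chain of leukocyte integrins, was at 5.48, 5.48 and 5.53 in yNSCs, 3.09, 3.24 and 3.52 in NSCs and 5.11, 5.68 and 4.92 in neurons. The NSC arrays lay below all others and were near background, whereas yNSCs and neurons overlapped. Itgb2 differed by -1.95 for NSCs minus neurons (SE 0.176, adjusted p = 8.52e-07) and by 2.21 for yNSCs minus NSCs (adjusted p = 1.06e-06), and with NSCs near background these sizes are not exact. Against neurons, yNSCs differed by 0.26 (adjusted p = 0.221), which became a call without neuron replicate B (0.48, adjusted p = 0.0103). None of the 6 was called higher than in neurons in yNSCs or in NSCs, beside 34.6% and 33.3% of all genes. At an unadjusted p under 0.05 in limma, 0 were higher in yNSCs and 1 in NSCs. Itgax, an alpha chain of macrophages and dendritic cells, was lower than in neurons by 0.39 in yNSCs (adjusted p = 0.00719) and by 0.41 in NSCs (adjusted p = 0.00498), and both calls were lost after repeated quantile normalization (-0.19 and -0.18, adjusted p = 0.128 and 0.147). Itgam, the alpha chain of the complement receptor on microglia, was near background in every group, with a called difference of -0.55 for NSCs minus neurons (adjusted p = 0.00499) that was lost in the same setting (-0.32, adjusted p = 0.0664).

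The summed signal of the 16 microglial and macrophage markers was 9.44 to 9.66 in yNSCs, 8.06 to 8.18 in NSCs and 12.61 to 13.07 in neurons (log2). Of these, 15 were lower in yNSCs and 16 in NSCs than in neurons, beside 27.9% and 34.1% of all genes. Between the stem-like groups, 11 were higher in yNSCs than in NSCs, beside 21.3% of all genes. The macrophage gene Cd68 was at 8.24, 8.40 and 8.62 in yNSCs, 3.96, 4.52 and 4.18 in NSCs and 9.26, 9.35 and 8.84 in neurons. Aif1 and Ptprc were near background in yNSCs, C1qb, Aif1, P2ry12 and Ptprc in NSCs and no marker in neurons. The part of such cells in the Itgb2 values was not tested. Itgae, a chain of intraepithelial lymphocytes, was near background in all groups. Itgae, Itgal, the lymphocyte partner of Itgb2, and Itgb7, the partner of alpha4 and alphaE, were not called in any comparison. Under alternatives, Itgae gained a call above neurons in 4 settings for NSCs and in 1 for yNSCs. Without neuron replicate C, Itgb7 was called lower than in neurons in yNSCs (-0.39) and in NSCs (-0.47). The other Itgal probe set was lower in NSCs than in neurons by 0.48 (adjusted p = 0.0156).

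The gamma1, beta2 and alpha5 laminin chains were higher in both stem-like groups than in neurons. Lamc1, the gamma chain of most laminins, was at 7.54, 7.63 and 7.63 in yNSCs, 8.08, 8.39 and 8.13 in NSCs and 5.93, 6.03 and 6.11 in neurons, and the groups did not overlap. It was 2.98-fold higher in yNSCs (adjusted p = 8.04e-08) and 4.52-fold higher in NSCs (adjusted p = 4.07e-09) than in neurons, and lower in yNSCs than in NSCs by 0.60 (SE 0.109, adjusted p = 0.00085). Lamb2, a beta chain of vascular, synaptic and pial basement membranes, was at 6.99, 7.02 and 7.06 in yNSCs, 7.20, 6.97 and 6.79 in NSCs and 4.66, 4.46 and 4.42 in neurons. The stem-like groups overlapped, and Lamb2 was 5.70-fold higher in yNSCs (adjusted p = 2.97e-09) and 5.55-fold higher in NSCs (adjusted p = 3.02e-09) than in neurons, with 0.04 (SE 0.120, adjusted p = 0.844) between yNSCs and NSCs.

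Lama5, the alpha chain of mature basement membranes and of the niche of pluripotent cells, was at 7.39, 7.35 and 7.56 in yNSCs, 7.96, 8.30 and 7.69 in NSCs and 4.22, 5.39 and 6.38 in neurons. The neuron arrays spread widely but lay below every other array. Lama5 was 4.30-fold higher in yNSCs (2.10, SE 0.393, adjusted p = 0.000486) and 6.29-fold higher in NSCs (2.65, adjusted p = 7.01e-05) than in neurons. Without neuron replicate A the differences were 1.55 and 2.10, and without neuron replicate C they were 2.63 and 3.18. The difference of -0.55 between yNSCs and NSCs (adjusted p = 0.309) was called when only those 6 arrays were fitted (adjusted p = 0.0189) and as the mean of all probe sets (-0.50, adjusted p = 0.00524), and a further Lama5 probe set gave -0.77 (adjusted p = 0.012).

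Lamb1, the widespread beta chain of embryonic basement membranes, marked native NSCs. It was at 7.27, 7.33 and 7.0 in yNSCs, 9.19, 9.10 and 9.32 in NSCs and 7.48, 7.17 and 7.34 in neurons, so that yNSCs overlapped neurons and NSCs lay above both. It was 3.66-fold higher in NSCs than in neurons (1.87, SE 0.124, adjusted p = 4.76e-08), 4.01 times lower in yNSCs than in NSCs (-2.00, adjusted p = 1.16e-07), and at -0.13 in yNSCs against neurons (adjusted p = 0.383). Lama4, an alpha chain of vessel walls, was also highest in NSCs, with 4.85, 4.77 and 4.94 in yNSCs, 5.58, 5.62 and 6.18 in NSCs and 4.77, 4.62 and 4.48 in neurons. It was 2.25-fold higher in NSCs than in neurons (adjusted p = 2.58e-05) and lower in yNSCs than in NSCs by 0.94 (adjusted p = 0.000388). The summed signal of 11 endothelial markers was 7.95 to 8.08 in yNSCs, 7.71 to 7.80 in NSCs and 7.99 to 8.32 in neurons, with Pecam1, Tek, Tie1 and Emcn near background in every group.

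Lama2, the alpha chain of the muscle and Schwann cell basement membrane, ran the other way. Its signal was 5.79, 5.71 and 5.83 in yNSCs, 5.40, 5.31 and 5.47 in NSCs and 6.73, 6.71 and 6.78 in neurons, without overlap. It was 1.95 times lower in yNSCs (adjusted p = 1.9e-06) and 2.54 times lower in NSCs (adjusted p = 8.16e-08) than in neurons. Lama1, the alpha chain of the early embryo, was near background in neurons and higher in NSCs by 0.71 (adjusted p = 0.00518), although the arrays of NSCs (3.95 to 4.65) and neurons (3.28 to 3.95) overlapped. Lamb3, an epidermal beta chain, was lower in yNSCs than in neurons by 0.61 (adjusted p = 0.0247) with overlapping arrays. The Lamb3 call was lost without neuron replicate A (-0.53), neuron replicate C (-0.49), yNSC replicate A (-0.61) or yNSC replicate B (-0.50). It was also lost after repeated quantile normalization and with array medians subtracted. Lama3, the epidermal partner of Lamb3, and Lamc3, a gamma chain of the brain surface and other tissues, were not called in any comparison. Lamc3 gained a call higher in NSCs than in neurons after repeated quantile normalization and without neuron replicate B.

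**Figure D3:**
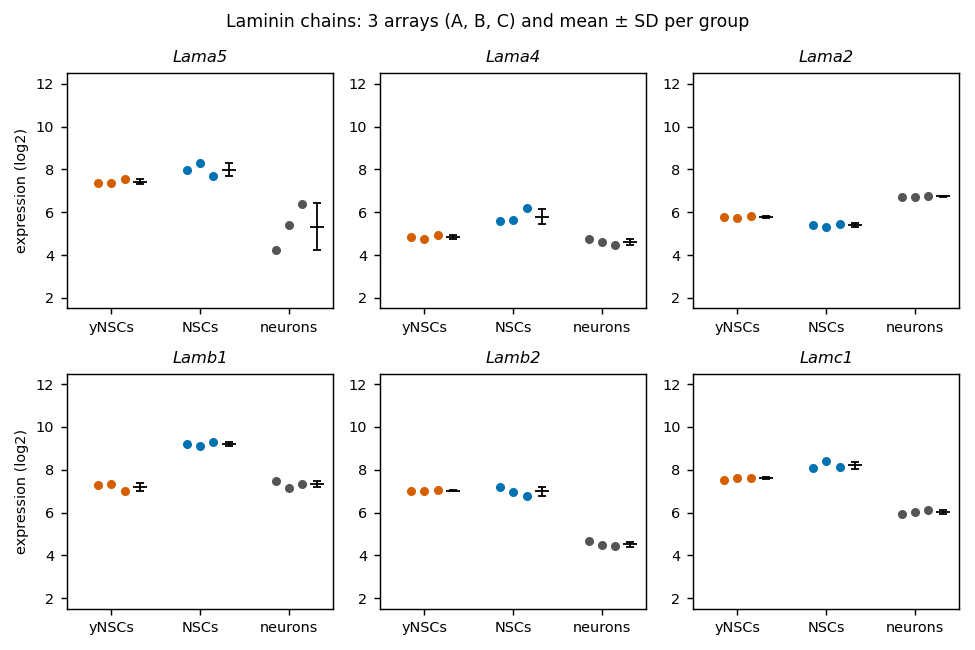
Log2 signal of 6 laminin genes on each array, with yNSCs, NSCs and neurons from left to right, points for replicates A to C and a black mark for the mean ± SD. Lamb1 is high in NSCs alone (9.10 to 9.32), Lamb2 and Lamc1 lie above neurons in both stem-like groups, and Lama2 is highest in neurons (6.71 to 6.78).

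For 20 of the 34 members several probe sets were present, 73 probe sets in all. Among called members with several, another probe set was called in the opposite direction for 2 of 12 in yNSCs against neurons (Itgav and Lama5), for 2 of 12 in NSCs against neurons (Itgav and Lamb1) and for 0 of 10 in yNSCs against NSCs. Itgav had 5 probe sets, and a further one gave 2.54 for yNSCs minus neurons, 0.40 for NSCs minus neurons and 2.14 for yNSCs minus NSCs, while another gave -1.78, -2.06 and 0.28. The size of the Itgav difference thus depended on the probe set, and its mean over all probe sets was 0.75 for yNSCs minus neurons and 0.18 for NSCs minus neurons (adjusted p = 0.0955). Other Itgb1 probe sets gave 2.19 and 1.59 for yNSCs minus neurons and 1.41 and 1.06 for NSCs minus neurons. Averaged over all probe sets, Itgb1 was at 1.11 for yNSCs minus neurons and 0.83 for NSCs minus neurons, Lama5 at 0.96 and 1.46, and Lamb1 at 1.06 for NSCs minus neurons and -1.21 for yNSCs minus NSCs, all still called. The Itga8 mean was 0.77 and the Lama4 mean 0.76 for NSCs minus neurons, both called, with -0.56 for Lama4 in yNSCs minus NSCs. For Lamb1, a near-background probe set gave -0.77 for NSCs minus neurons, against 2.34 and 0.81 from others.

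**Figure D4:**
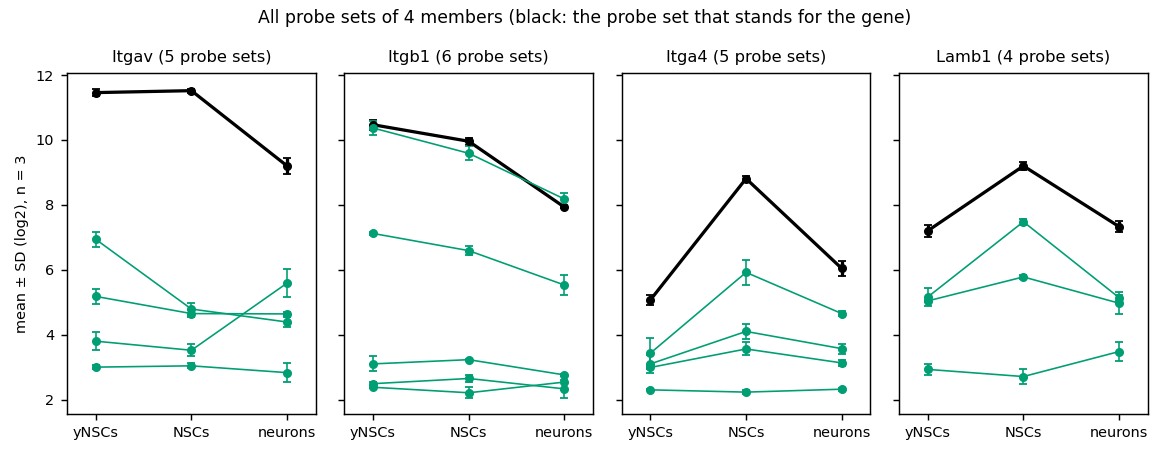
Mean ± SD log2 signal (n = 3) in yNSCs, NSCs and neurons for every probe set of Itgav, Itgb1, Itga4 and Lamb1, a line for each, with the probe set that represents the gene in black. One Itgav probe set averaged 3.80 in yNSCs, 3.52 in NSCs and 5.59 in neurons, and the brighter Itga4 and Lamb1 probe sets peak in NSCs.

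Genes that act with integrins and laminins were read from 4 lists, chosen with earlier results of these data known and therefore no independent evidence. Of 24 measured integrin regulators and adhesion adaptors, yNSCs had 14 higher and 5 lower than neurons, NSCs had 14 higher and 6 lower than neurons, and yNSCs had 6 higher and 5 lower than NSCs. Over all genes the shares higher and lower were 34.6% and 27.9%, 33.3% and 34.1%, and 21.3% and 18.0% in these comparisons. Pxn, the adhesion scaffold paxillin, was higher than in neurons by 2.55 in yNSCs and 3.91 in NSCs, and lower in yNSCs than in NSCs by 1.37. Tns2, a tensin that binds integrin tails, was lower in yNSCs than in NSCs by 1.39. Vcl, the actin linker vinculin, was higher than in neurons by 2.44 and 2.69. Actn1, the actin cross-linker alpha-actinin, was at 9.85, 9.75 and 9.89 in yNSCs, 7.69, 7.38 and 7.46 in NSCs and 7.80, 7.59 and 7.82 in neurons, with yNSCs above both other groups. Ptk2b, a focal adhesion kinase relative abundant in neurons, was lower than in neurons by 2.28 in yNSCs and by 2.92 in NSCs. Tln1, which switches integrins on by binding beta tails and was chosen after its values were seen, had differences from neurons of -2.10 in yNSCs and -2.04 in NSCs.

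Of 12 basement membrane partners of laminin, yNSCs had 7 higher and 5 lower than neurons, NSCs had 7 higher and 3 lower than neurons, and yNSCs had 3 higher and 3 lower than NSCs, beside 34.6% and 27.9%, 33.3% and 34.1%, and 21.3% and 18.0% of all genes. Col4a5, a type IV collagen chain, was at 10.01, 9.95 and 9.93 in yNSCs, 7.92, 8.50 and 8.79 in NSCs and 5.09, 5.37 and 5.35 in neurons, without overlap. Nid1, the nidogen that bridges laminin gamma1 to collagen IV, was higher than in neurons by 3.18 in yNSCs and 2.90 in NSCs. Its relative Nid2, near background in neurons, was higher in NSCs by 2.69, and Col18a1, a collagen of basement membranes, was higher in yNSCs than in neurons by 3.23 and than in NSCs by 1.08. Col4a6, the chain that assembles with Col4a5, was higher in yNSCs than in NSCs by 2.27 (adjusted p = 4.64e-08), and NSCs differed from neurons by -0.25 (adjusted p = 0.1).

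Of 11 non-integrin laminin receptors and their partners, yNSCs had 7 higher and 0 lower than neurons, NSCs had 8 higher and 0 lower than neurons (lower at an unadjusted p under 0.05 in limma, 0 and 1), and yNSCs had 5 higher and 1 lower than NSCs. The shares of all genes were again 34.6% and 27.9%, 33.3% and 34.1%, and 21.3% and 18.0%. Cd151, a tetraspanin that binds laminin-binding integrins, was at 11.96, 11.92 and 11.79 in yNSCs, 10.59, 10.11 and 10.26 in NSCs and 8.19, 8.09 and 7.95 in neurons, without overlap. Sdc1, a syndecan that binds laminin through heparan sulfate, was higher than in neurons by 3.92 in yNSCs and 3.54 in NSCs. Sdc4, the syndecan of focal adhesions, was higher than in neurons by 2.60 and 1.12 and higher in yNSCs than in NSCs by 1.48, and Sdc2, a related syndecan, was higher in yNSCs than in NSCs by 1.45. Dmd, the dystrophin that joins the laminin receptor dystroglycan to actin, was higher in NSCs than in neurons by 1.78.

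Of 20 measured integrin ligands other than laminins, yNSCs had 11 higher and 4 lower than neurons, NSCs had 7 higher and 5 lower than neurons, and yNSCs had 8 higher and 5 lower than NSCs. Against 34.6% and 27.9%, 33.3% and 34.1%, and 21.3% and 18.0% of all genes, the share of ligands higher in NSCs than in neurons was near the background. Fn1, the Itga5 and Itga4 ligand fibronectin, was at 10.81, 10.58 and 10.96 in yNSCs, 8.26, 8.18 and 8.04 in NSCs and 6.38, 6.31 and 6.16 in neurons. Tnc, the Itga9 and Itga8 ligand tenascin-C, was at 9.93, 9.78 and 9.75 in yNSCs, 11.38, 11.53 and 11.24 in NSCs and 4.96, 4.91 and 5.12 in neurons. Neither gene had overlapping groups, and their order differed, with Fn1 highest in yNSCs and Tnc highest in NSCs. Ltbp1, which holds latent TGF-beta in the matrix for alphav integrins, was higher than in neurons by 5.51 in yNSCs and 3.03 in NSCs, with the neuron arrays near background so that these sizes are not exact. Npnt, the Itga8 ligand nephronectin, was higher than in neurons by 1.31 and 2.82. Ccn1, a matricellular ligand of alphav and alpha6 integrins and a well-known YAP target, was higher in yNSCs than in NSCs by 3.04, and Edil3, an RGD ligand of alphav integrins, by 3.0.

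**Figure D5:**
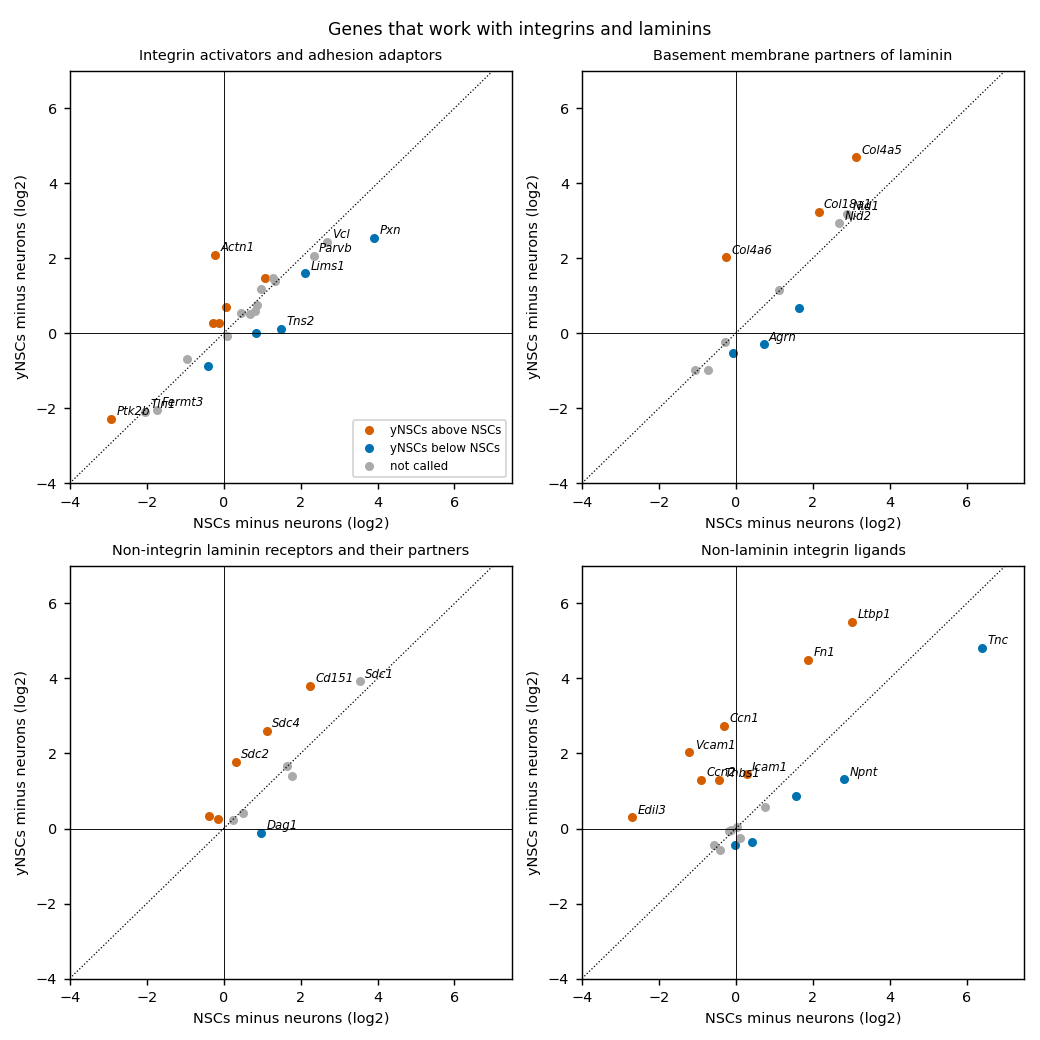
Each point is a gene of 1 of the 4 companion lists, with its NSCs minus neurons difference on the x axis and its yNSCs minus neurons difference on the y axis (log2), orange where yNSCs were called above NSCs, blue where below and grey where not called. Both axes share the neuron arrays, which by itself draws genes toward the diagonal, and Actn1, Col4a6 and Vcam1 lie well above it.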

How the data were processed

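The labels describe 9 Affymetrix mouse arrays, and the authors deposited log2 signals normalized with RMA per the submitters' processing notes (version not stated). RMA is meant to set every array to 1 distribution and compresses changes of dim probe sets. The deposited arrays did not share 1 distribution at the dim end. Their lower quartiles were 3.67 to 3.73 in neurons, 3.42 to 3.45 in NSCs and 3.46 to 3.53 in yNSCs. Of 45101 probe sets, 64 were controls, 34945 had a single gene symbol in the platform annotation, 932 had several and 9160 had none. The probe set with the highest mean represented each of 18193 genes, 9010 of which had several. Groups were compared with limma 3.58.1 in R 4.3.3 (lmFit and eBayes on 9 arrays, 6 residual and 5.59 prior degrees of freedom) with Benjamini-Hochberg adjustment over all genes, after a check on simulated data. Having only 3 arrays a group limits how precisely a difference is known, and an exact permutation test cannot give p below 0.1. Promoters came from RefSeq (GRCm38.p6). Every member was named, and companion genes were at most 3 called genes with the largest difference per list and comparison, and 1 not called. The choice to follow these gene families, and the lists, were made with earlier results of these data known. Alternatives were repeated quantile normalization, array median subtraction, the mean of all probe sets, a filter on low signals, a 2-fold minimum, the 2 groups alone, a robust prior with a variance trend, a replicate block and leaving out each array.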

Additional observations from a re-analysis of the deposited data

How the results depend on the processing

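Over 1578 member results under alternatives, 1502 kept their call or their lack of one, 45 lost a call, 29 gained one and 2 reversed. A change of sign counted as reversed only with a call in the main or the alternative fit. Uncalled members that changed sign, such as Itga10 in yNSCs against neurons (-0.14 to 0.24), were counted as kept. With all probe sets of a gene averaged, Itgb3 became lower in NSCs than in neurons (-0.37, adjusted p = 0.00336) and Itgav higher in yNSCs than in NSCs (0.57, adjusted p = 0.000304). The 7 members lower in yNSCs than in neurons were 3 after the 40% of genes with the lowest signal were dropped and 0 with a 2-fold minimum in limma (0 also at an unadjusted p under 0.05). The 7 lower in NSCs than in neurons were 3 after repeated quantile normalization, 2 without the lowest genes and 2 with the 2-fold minimum. With that minimum, yNSCs had 2 members higher and 3 lower than NSCs. A filter leaves fewer genes and a minimum asks for more, and for the repeated normalization the cause was not tested. Leaving out 1 array at a time gave 12 to 14 members higher and 6 to 7 lower in yNSCs than in neurons, 14 to 17 higher and 6 to 8 lower in NSCs than in neurons, and 6 to 9 higher and 6 to 7 lower in yNSCs than in NSCs.

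No shared effect of the replicate letter was seen, since same-letter deviations correlated at -0.11 to 0.10. The labels did not say whether samples with the same letter were prepared together. With the replicate letter as a block, the counts of members higher and lower were 12 and 7 for yNSCs against neurons, 15 and 7 for NSCs against neurons, and 8 and 7 for yNSCs against NSCs, with Itga2b lost and Itga5 gained in NSCs against neurons. Dim members such as Itga10, Itgae, Itgam and Itgb6 lay near background, which limits what can be read from their sizes.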
